A study of Homo sapiens with 36 samples.

Results

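The regions described are PAR-CLIP clusters of SCAF4 and SCAF8 and of their controls that lay deep inside introns other than the first. PAR-CLIP (photoactivatable ribonucleoside-enhanced crosslinking and immunoprecipitation) labels RNA with 4-thiouridine (4SU), crosslinks bound proteins to it with UV light and sequences the RNA that is pulled out with 1 of them. A cluster was a member if its midpoint lay in intron 2 or later of a protein-coding gene of GENCODE 44 on the same strand of GRCh38, at least 500 nt from every annotated exon on that strand. Introns were numbered on the isoform whose exons add up to the greatest length. Of 278185 clusters in all 18 lists, 21832 met this rule, between 56 and 3944 per list.

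The cells were HEK293 Flp-In T-REx, a line from human embryonic kidney that takes up a transgene at 1 genomic site and induces it with doxycycline. A line with FLAG-tagged SCAF4 and a line with FLAG-tagged SCAF8 received 100 ng/mL doxycycline overnight according to the labels. The study's methods give a higher dose and list the parental line among the cells that received it, so the dose and the treatment of the control are not settled. The parental line without a tagged protein served as the control. All lines carried the CRISPR status WT, so that the tagged protein was made beside the cells' own SCAF4 and SCAF8. The immunoprecipitation (IP) was directed at the FLAG tag. All cells received 100 μM 4SU overnight and 500 μM for the last 2 h, and 2000 J/m2 of light at 365 nm. Each line gave 3 replicates of IP and of input, and the input was RNA of the extract before the pull-out. The soluble and chromatin fractions, 36 libraries in all, were combined by the authors before clusters were called, so that the fractions cannot be told apart. The lists held 1621 to 54404 clusters and no read counts. Control IP replicates 2 and 3 were the shortest lists, with 56 and 85 members.

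SCAF4 and SCAF8 carry a domain that binds the C-terminal domain of RNA polymerase II (RNAPII) and a domain that recognizes RNA. They travel with elongating RNAPII and are known for holding back the use of early polyA sites. Introns are transcribed by RNAPII and spliced out, mostly while transcription goes on, and the excised RNA is degraded. A position far from every exon is absent from the spliced mRNA of the annotated isoforms, so that its RNA belongs to the unspliced transcript, to the excised intron or to a transcript that is not annotated.

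Clusters of all lists that overlapped on the same strand were merged into 82455 regions, and 9097 of them were deep in later introns by their own midpoint. In 14 regions there was a cluster in each of the 6 IP lists of SCAF4 and SCAF8 and in 0 of the 12 input and control IP lists, and 7 of the 10 with the most clusters are shown. These 14 were 0.154% of the regions deep in later introns, while such regions made up 0.682% of all merged regions. They are given in the sense of the RNA from 5′ to 3′, with GRCh38 coordinates, so that the letters of the most recurrent IP positions can be read. Capitals mark matches to 3 short motifs that the study derived from clusters of these same experiments, on the transcribed strand, with T for U. The letters of the first are CGG or CGA, those of the second are CAG between C or G on either side, and those of the last are CTCC or CACC. For regions over 300 nt the central 120 nt are printed.
ZNF644 intron 2, chr1:90965256-90965402, minus strand: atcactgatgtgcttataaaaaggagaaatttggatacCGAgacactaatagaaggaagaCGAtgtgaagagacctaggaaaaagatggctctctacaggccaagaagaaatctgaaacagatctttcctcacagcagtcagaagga
LPP intron 2, chr3:188228104-188228258, plus strand: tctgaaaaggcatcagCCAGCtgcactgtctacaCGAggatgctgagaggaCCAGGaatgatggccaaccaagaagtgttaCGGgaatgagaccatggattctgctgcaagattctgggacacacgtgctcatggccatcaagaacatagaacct
CDK5RAP2 intron 13, chr9:120489144-120489294, minus strand: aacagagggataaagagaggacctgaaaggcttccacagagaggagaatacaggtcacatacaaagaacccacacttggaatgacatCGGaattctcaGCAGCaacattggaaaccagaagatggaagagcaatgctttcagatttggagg
EIF4E intron 2, chr4:98893678-98893797, minus strand: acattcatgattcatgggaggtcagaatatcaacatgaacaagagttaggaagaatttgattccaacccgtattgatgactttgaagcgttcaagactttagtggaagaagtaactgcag
ZNF605 intron 3, chr12:132941280-132941399, minus strand: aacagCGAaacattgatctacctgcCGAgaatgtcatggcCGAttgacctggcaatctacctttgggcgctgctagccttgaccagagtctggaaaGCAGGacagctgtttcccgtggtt
DNAAF5 intron 12, chr7:782275-782394, plus strand: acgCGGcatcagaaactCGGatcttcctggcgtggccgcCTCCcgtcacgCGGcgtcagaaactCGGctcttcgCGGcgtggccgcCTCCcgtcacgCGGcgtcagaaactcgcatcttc
DNAAF5 intron 4, chr7:753865-753984, plus strand: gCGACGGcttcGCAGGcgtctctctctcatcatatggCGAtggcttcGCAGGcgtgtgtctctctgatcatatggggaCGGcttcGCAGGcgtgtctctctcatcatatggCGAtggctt

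The region of LPP, which encodes a protein of focal adhesions, lay 2654 nt into an intron 2 of 116 kb. CDK5RAP2, a centrosome gene, held its region in intron 13 of 35, and the zinc finger gene ZNF644 in intron 2, 7415 nt from an exon. EIF4E encodes the cap-binding translation factor, and its region lay in intron 2. The matches to the 3 motifs ranged from 0 in the printed stretch of EIF4E to 8 in each printed stretch of DNAAF5. DNAAF5, an assembly factor of ciliary dynein arms, held regions of this kind in both intron 12 and intron 4. The letters of the first repeated themselves at a shift of 47 nt with 91.8% identity within the printed stretch, and those of the second at 36 nt with 66.7%. Among those not shown are the regions in intron 5 of ENSG00000262660 and in intron 3 of POLR2J3. In the 100 nt around the midpoint of the POLR2J3 region, 0% of 24-mers (stretches of 24 nt) occurred once in the genome and 50.6% were also found in annotated spliced transcripts, most of all in PMS2P4. In the same window, all 24-mers were unique in the regions of ZNF605, LPP, CDK5RAP2 and ENSG00000262660.

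At the other end stood 10 regions with a cluster in all 18 lists, and 4 of them are shown because their letters set them apart. In HFM1 and AAMDC, capitals mark 24-mers that also occur in the 45S ribosomal RNA genes. In TACC3 and MAPK8IP3 capitals mark the motifs, as above.
HFM1 intron 4, chr1:91387344-91387463, minus strand: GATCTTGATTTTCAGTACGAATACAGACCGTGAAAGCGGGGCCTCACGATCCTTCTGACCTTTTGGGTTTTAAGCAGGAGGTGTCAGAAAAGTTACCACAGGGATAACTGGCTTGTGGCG
AAMDC intron 4, chr11:77886522-77886641, plus strand: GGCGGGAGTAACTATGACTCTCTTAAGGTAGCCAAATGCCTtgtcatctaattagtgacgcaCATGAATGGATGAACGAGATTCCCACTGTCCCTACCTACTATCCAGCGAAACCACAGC
TACC3 intron 3, chr4:1732180-1732299, plus strand: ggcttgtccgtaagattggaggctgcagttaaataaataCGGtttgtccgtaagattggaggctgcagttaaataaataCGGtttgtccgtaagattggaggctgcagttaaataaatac
MAPK8IP3 intron 4, chr16:1736336-1736455, plus strand: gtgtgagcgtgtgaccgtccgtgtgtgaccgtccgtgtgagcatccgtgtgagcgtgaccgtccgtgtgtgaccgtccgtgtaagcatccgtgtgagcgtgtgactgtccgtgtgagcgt

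Of the whole HFM1 region, 91.3% of the 24-mers were letters of the ribosomal RNA genes, and 41.8% of the AAMDC region. Another region of this kind, in intron 6 of SLCO5A1, shared 68.8%. The printed stretch of TACC3, a gene of the mitotic spindle, repeated itself every 40 nt with 98.8% identity, and that of MAPK8IP3 at a shift of 44 nt with 80.3%. MAPK8IP3, a scaffold of JNK signaling, contributed 3 of the 10 regions, all in intron 4. Other regions of this set were in intron 10 of GPI, a glycolytic enzyme, and in intron 12 of ERC1. They were long, with 3355 nt and 132 clusters in GPI and 3210 nt and 113 clusters in ERC1. Over all 9097 regions, 6 reached 20% of 24-mers in ribosomal RNA genes and 9 in the mitochondrial genome. The authors' alignment reported 1 position for a read that fitted several, and the part of this in these regions was not tested.

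Most regions were seen in 1 list. A single list accounted for 57.2% of the regions deep in later introns, against 44.1% of all merged regions. At least 2 of the 6 IP lists held a cluster in 2922 regions (32.1%, 95% Wilson interval 31.2 to 33.1%), where the share over all merged regions was 50.1%. Of these, 1365 (15% of the 9097, 14.3 to 15.8%) had no cluster in any input or control IP list, against 27.3% of all merged regions. In all 18 lists were 10 regions, or 0.110%, against 0.508%. Regions deep in first introns were similar to those in later introns, with 34.9% in at least 2 IP lists and 17% in at least 2 IP and 0 other lists. In turn, 18% of the regions deep in later introns had no cluster in any SCAF4 or SCAF8 IP list, compared with 7.35% of all merged regions. Intervals cover counting error only, and shares of regions were not tested, because regions of 1 gene and of 1 list are not independent.

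**Figure D1:**
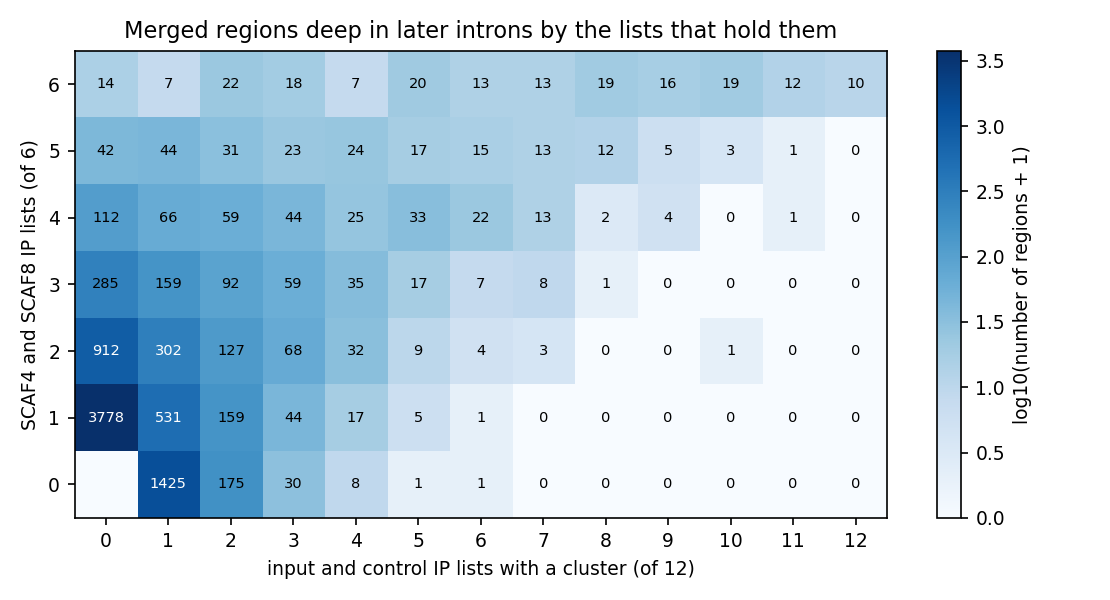
Merged regions deep in later introns, counted by the number of SCAF4 and SCAF8 IP lists (vertical axis, of 6) and of input and control IP lists (horizontal axis, of 12) with a cluster in them; the color gives log10 of the number plus 1. The largest cell holds 3778 regions of 1 IP list and 0 other lists, and 14 regions (0.154%, against 0.682% of all merged regions) stand at 6 IP lists and 0 other lists.

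Some of these positions were shared between SCAF4 and SCAF8. Clusters in at least 2 of the 3 SCAF4 IP lists marked 1637 regions, and clusters in at least 2 of the 3 SCAF8 IP lists marked 1296. The 664 regions in both were 40.6% of the SCAF4 regions and 51.2% of the SCAF8 regions. Over all merged regions the same shares were higher, at 51.4% and 72.1%. The number of regions in at least 2 IP and 0 other lists depended on the replicates. It fell from 1365 to 722 without replicate 2 and to 553 without replicate 3, and was 1429 without replicate 1.

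To ask whether binding deep in later introns was particular to the IP, the members were expressed as a percentage of each list. SCAF4 IP had 5.40%, 7.25% and 6.47% in replicates 1, 2 and 3, and SCAF8 IP had 8.54%, 5.93% and 8.19%. The inputs of the same lines had 8.64%, 7.27% and 7.97% for SCAF4 and 12.1%, 7.32% and 7.17% for SCAF8. These values overlapped, with a mean of 6.96% ± 1.25 (SD, n = 6) for the IP and 8.40% ± 1.88 (SD, n = 6) in the inputs. The difference of −1.44 percentage points was not larger than the spread between lists (two-sided exact permutation test, p = 0.141, adjusted p = 0.253 over 9 tests). Replicate 1 was sequenced separately with longer reads, and without it the difference was −0.473 (exact permutation test, p = 0.457). The size of this difference depended on which clusters were counted. When clusters with scores under the median of the list were left out, the IP was lower by 3.69 points (exact permutation test, p = 0.00433). As a percentage of intronic clusters, it was lower by 6.53 points (exact permutation test, p = 0.00433). With the 1621 clusters of the highest scores from each list, it was lower by 4.28 points (exact permutation test, p = 0.00216, the smallest possible). The p-values of these alternatives were not adjusted.

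**Figure D2:**
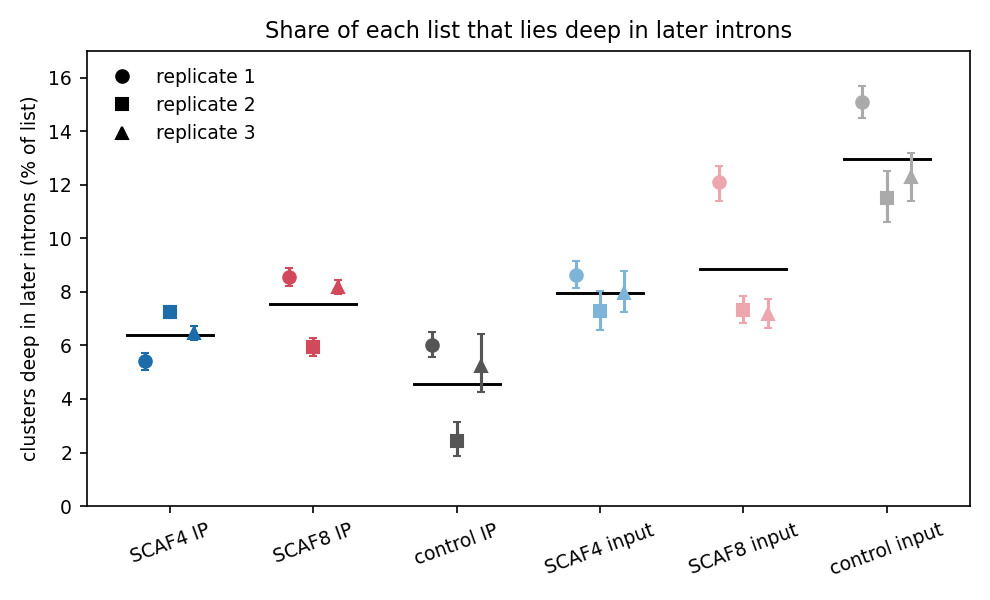
Percentage of the clusters of each list that lay deep in later introns, by group, with the 95% Wilson interval of each list and a bar at the mean of the 3 lists; symbols give the replicate. Control input lies highest, between 11.5% and 15.1%, and control IP lowest, between 2.42% and 6.02%.

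Control IP, the pull-out from cells without a tagged protein, had 6.02%, 2.42% and 5.24%, and control input had 15.1%, 11.5% and 12.3%. The lists of control IP and control input did not overlap, but 3 lists against 3 cannot reach a p below 0.1 (difference −8.40 points, two-sided exact permutation test, p = 0.1, adjusted p = 0.225). The SCAF4 and SCAF8 IP exceeded control IP by 2.40 points (exact permutation test, p = 0.0476, adjusted p = 0.143). This difference did not pass correction. It turned to −1.91 points when the 1621 clusters with the highest scores were taken from each list (exact permutation test, p = 0.0238). That setting kept all of control IP replicate 3 but only the highest scores of the longer lists, which held up to 54404 clusters. Selection by score and list length cannot be told apart in it. The excess over control IP was 3.13 without replicate 1 (exact permutation test, p = 0.0667), and p was 0.111 when lists were permuted within replicate numbers. In pairs of IP and input of the same number, the difference was −9.09, −9.08 and −7.04 points in the control line. It was −3.24, −0.0247 and −1.50 in the SCAF4 line and −3.52, −1.39 and 1.02 in the SCAF8 line. The control line thus fell lower than each tagged pair, with a mean difference of −6.96 points (exact permutation test, p = 0.0119, the smallest possible, adjusted p = 0.107). With the same number of clusters in every list it was −1.89 points (exact permutation test, p = 0.25). SCAF4 IP was 1.18 points below SCAF8 IP, within the spread of the lists (exact permutation test, p = 0.3, adjusted p = 0.37, with a smallest possible p of 0.1).

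Later introns took most of the deep intronic clusters in every list. Clusters deep in any intron, first or later, were in later introns in 63.4% ± 2.28 (SD, n = 6) of cases for both IPs and in 64.5% ± 3.62 (SD, n = 6) for their inputs (exact permutation test, p = 0.526, adjusted p = 0.526). Later introns offered more sequence, however. Within the bodies of 7857 protein-coding genes that held a merged region of any kind, 342 Mb of later introns and 117 Mb of first introns lay at least 500 nt from exons. Per Mb of this length, later introns held 8.55 regions of at least 2 IP lists and first introns 15.2. The order was kept at matched intron length, with 11.8 per Mb in later and 27.1 in first introns of 5 to 20 kb. Introns of 100 kb or more held 2.85 per Mb when later and 6.92 when first. Merged regions of any list kept the same order, with 26.6 per Mb in later and 43.6 in first introns.

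Among later introns, regions of at least 2 IP lists per Mb were fewer the farther the intron lay from the gene start. Their number was 10.5 in intron 2, 9.23 in introns 3 to 5, 8.42 in introns 6 to 10, 6.62 in introns 11 to 20 and 5.07 in introns 21 and later. Within introns of 5 to 20 kb, the same classes gave 19.3, 14.4, 11, 6.66 and 4.76. Length set a second gradient, from 18.2 per Mb in later introns under 5 kb through 11.8 and 5.29 to 2.85 in those of 100 kb or more. Merged regions of any list showed both gradients too. They fell from 31.5 per Mb in intron 2 to 17.7 in introns 21 and later. By length they fell from 48.3 in later introns under 5 kb to 12.8 in those of 100 kb or more. The abundance of the RNA was not known from these lists.

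Deep regions were found toward the upstream part of long introns. Of the regions in at least 2 IP lists, 57.0% lay nearer to the 5′ than to the 3′ end of their intron, where 49.7% of the length open to members lies. The share was higher in longer introns. It was 48.7% in introns under 5 kb, 55.1% in introns of 5 to 20 kb, 65.9% in those of 20 to 100 kb and 76.4% in those of 100 kb or more. The share of open length was 49.6 to 49.9% in each class. The regions without any SCAF4 or SCAF8 IP cluster had nearly the same values, 50.3%, 53.2%, 64.0% and 75%. The last 10% of the intron held 3.05% of the regions in at least 2 IP lists and 6.65% of the open length. Over lists, the upstream part held 56.9% ± 1.52 (SD, n = 6) of members for both IPs and 55.3% ± 2.40 (SD, n = 6) for their inputs. This difference of 1.65 points was within the spread (exact permutation test, p = 0.19, adjusted p = 0.286) and turned to −4.88 with equal numbers of clusters per list (exact permutation test, p = 0.147).

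**Figure D3:**
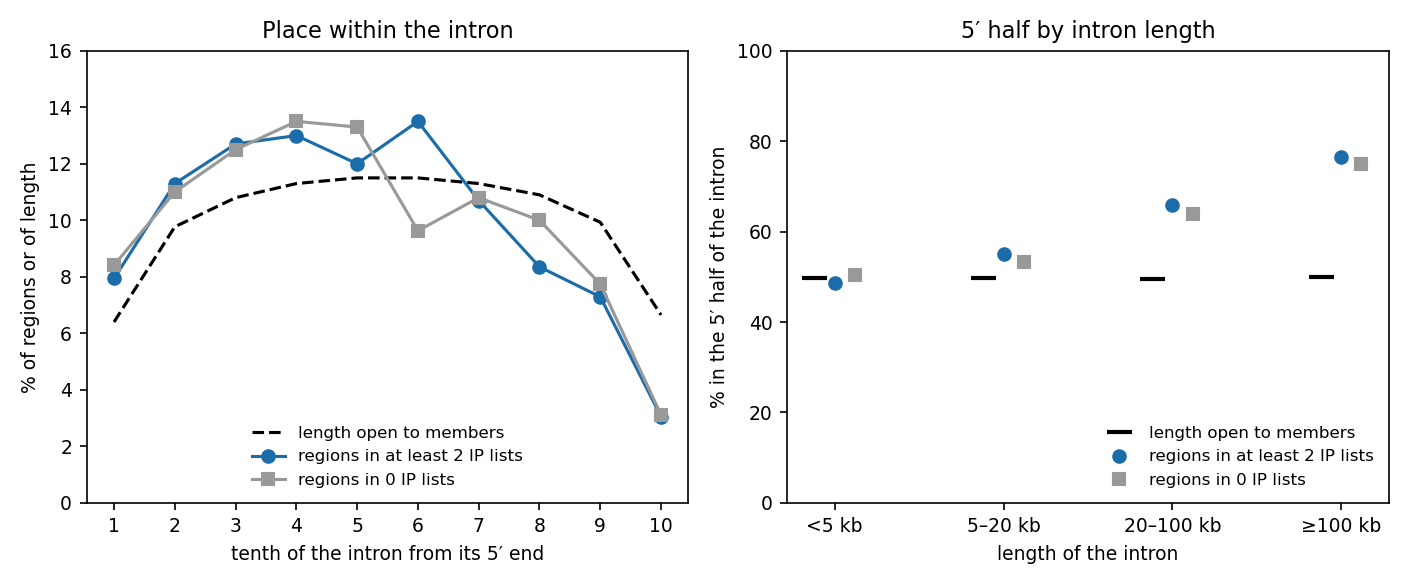
Left, percentage of merged regions (points) and of the length open to members (dashed line) in each 10% of the intron, counted from its 5′ end. Right, percentage nearer to the 5′ than to the 3′ end of the intron by intron length, for regions in at least 2 IP lists (76.4% in introns of 100 kb or more), regions in 0 IP lists (75%) and the open length (49.9%).

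The merged regions lay a median of 1933 nt from the nearest exon, with quartiles of 1004 and 4559 nt and a largest distance of 132913 nt. Regions in at least 2 IP lists lay closer, at a median of 1704 nt, and regions without an IP cluster farther, at 2406 nt. The limit of 500 nt fell on no gap in the data. In later introns there were 1582 clusters in the 100 nt just outside it and 1535 in the 100 nt just inside. No member overlapped an exon, and 1144 members had an edge closer than 500 nt. The regions were 134 nt long in the median, and 9.82% lay in the last intron of their gene.

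Base composition differed with the lists that held a region. In the 100 nt around the midpoint, the GC content was 47.4% in the regions of at least 2 IP and 0 other lists and 39.4% in regions without an IP cluster. Regions whose midpoint lay in an exon and that had clusters of at least 2 IP and 0 other lists had 51.5%. Of the 1640 regions without an IP cluster, 1425 were in 1 list, so that these sets differ in recurrence as well. Compared by list, members had a GC content of 44.6%, 45.6% and 45.5% in SCAF4 IP and of 44.2%, 46.8% and 46.8% in SCAF8 IP. Their inputs had 41.5%, 45.2% and 44.8% in the SCAF4 line and 39.5%, 44% and 44.1% in the SCAF8 line. Each IP list was above the input of its own line and number. The means, 45.6% ± 1.08 (SD, n = 6) and 43.2% ± 2.24 (SD, n = 6), differed by 2.40 points (exact permutation test, p = 0.0238), which did not pass correction (adjusted p = 0.107). The inputs of replicate 1 were the lowest in both lines, and without replicate 1 the difference was 1.63 (exact permutation test, p = 0.0286). Members in control IP had 45.6%, 51.0% and 47.6%, over 580, 56 and 85 members. Control input had 40.5%, 43.5% and 44.3%, so that IP was above input in each replicate without a tagged protein too.

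The 3 motifs were less frequent in regions without an IP cluster. The study derived them from SCAF4 and SCAF8 clusters of these same experiments, against clusters of the inputs. The comparison of IP with other lists is therefore no independent support for the motifs. CGG or CGA occurred in the 100 nt window of 56.5% of the regions of at least 2 IP and 0 other lists, of 30.2% of regions without an IP cluster and of 62.0% of all merged regions. CAG between C or G on either side occurred in 38.7%, 22.5% and 42.4% of the same sets, and CTCC or CACC in 39.2%, 27.4% and 47.4%. A run of TTTTTT went the other way, with 3.74%, 9.15% and 4.09%. AATAAA, the letters of the main polyA signal, stood in 4.69% of the regions of at least 2 IP and 0 other lists, in 5.79% of those without an IP cluster and in 3.57% of all merged regions. GGTAAG or GGTGAG, which resemble the start of an intron, stood in 7.11%, 4.45% and 6.90%. Each of these matches counts letters on the transcribed strand, at any overlap with other motifs, and none was corrected for GC content. The sets differ in recurrence too, since 1425 of the 1640 regions without an IP cluster were in 1 list.

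Most regions had letters found once in the genome. In the 100 nt window, all 24-mers were unique in 75.3% of the regions of at least 2 IP and 0 other lists and in 78.1% of those without an IP cluster. Letters of annotated spliced transcripts reached 20% of the 24-mers in 4.03% and 1.59% of them. Around member midpoints, 3.03% ± 0.356 (SD, n = 6) of 24-mers occurred at least 10 times in the genome for both IPs, and 3.49% ± 1.07 (SD, n = 6) for the inputs (exact permutation test, p = 0.329, adjusted p = 0.37). Control IP replicate 2, with 56 members, stood apart at 10.6%. Without replicate 1 the IP was lower by 1.11 points (exact permutation test, p = 0.0286).

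The regions were spread over many genes. All 9097 lay in 2690 genes and 4541 introns, and the 2922 regions of at least 2 IP lists in 1315 genes, 774 of which held 1. The 20 genes with the most held 12.0% of them. Each cluster was assigned to 1 gene with a later intron at its position. Where later introns of several genes lay there, as for 859 clusters, only the shortest gene was counted. In addition, 606 clusters also lay in a first intron of another gene.

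The IP lists of SCAF4 and SCAF8 held 18287 to 54404 clusters and their inputs 4793 to 11715, so that counts of clusters in a gene favor the IP. Counts of clusters are therefore mostly given beside the same values per 1000 clusters of the list, a scaling chosen after seeing the data. Several genes are given with numbers of regions only, which are not scaled for the length of the lists. Per 1000 clusters, 0 of the 20 genes were higher in each IP list than in each input of the tagged lines. This held for 1.45% of the 551 genes with at least 10 member clusters. Of the 20, 1 gene, RPS10-NUDT3, was lower in each IP list, at 0.278 to 0.554 against 0.768 to 1.11, and 3.45% of the 551 were. The mean of the IP lists exceeded that of the inputs in 6 of the 20 and in 39.7% of the 551.

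ANKRD11, a chromatin regulator on chromosome 16 (89267630 to 89490561, minus strand), held the most, with 36 regions of at least 2 IP lists, 17 of them in 0 other lists. Over all genes, 1365 of the 2922 such regions were in 0 other lists, the base for the counts of single genes. The SCAF4 IP lists had 12, 27 and 12 of the ANKRD11 clusters and the SCAF8 IP lists 43, 10 and 46, against 11, 2 and 2 and 19, 8 and 2 in their inputs. Control IP had 5, 0 and 0 and control input 11, 1 and 1. Per 1000 clusters, SCAF4 IP had 0.353 to 0.632 and SCAF4 input 0.391 to 0.939, and SCAF8 IP had 0.547 to 1.71 and SCAF8 input 0.222 to 2.08, so that IP and input overlapped in both lines. Of the 36 regions, 27 lay in intron 2, which is 101 kb long. For 155 of the 212 ANKRD11 clusters the position also lay in a first intron of another annotated gene.

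**Figure D4:**
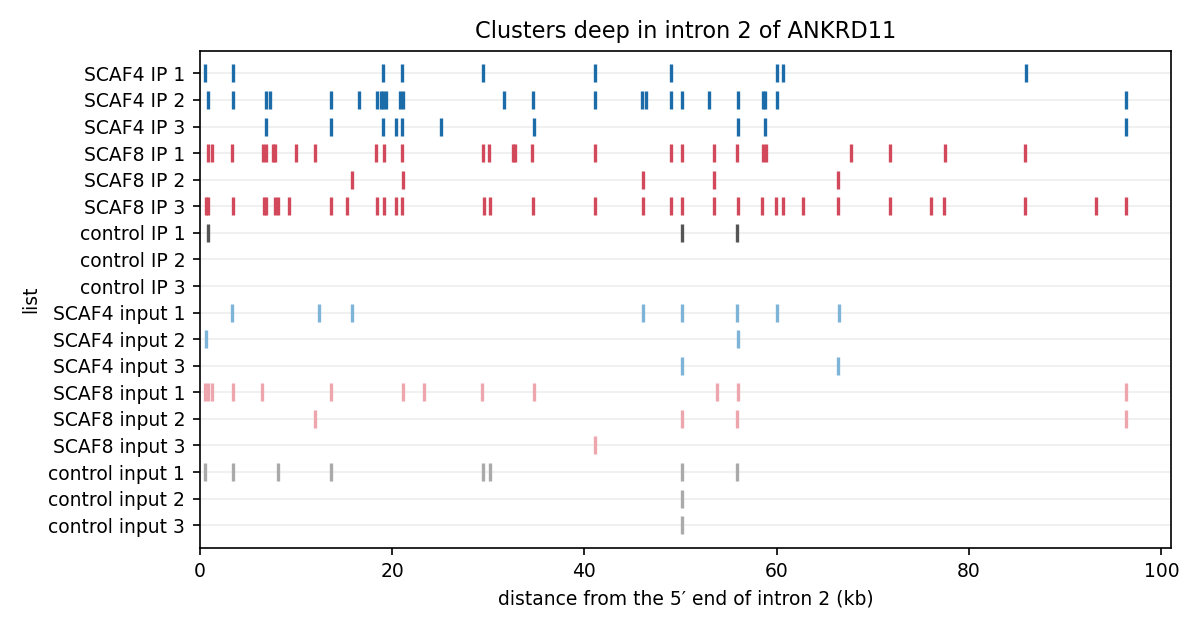
Clusters deep in intron 2 of ANKRD11, by distance from the 5′ end of the intron in kb (horizontal axis) and by list (rows); ticks mark cluster midpoints. SCAF8 IP replicate 3 has 34 clusters and SCAF4 IP replicate 2 has 25, and 2 control IP lists have 0.

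SFMBT2, a Polycomb group gene, followed with 28 regions, 24 of them in its intron 4 of 81.7 kb. Its clusters numbered 9, 29 and 15 in SCAF4 IP, 12, 19 and 38 in SCAF8 IP and 2 to 10 in their inputs. Per 1000 clusters these were 0.442 to 0.533, 0.476 to 1.04 and 0.219 to 0.965, and most IP lists overlapped with the inputs. PPP2R2A, a regulatory subunit of protein phosphatase 2A, held 22 regions, of which 2 were in 0 other lists. In PPP2R2A the inputs of the tagged lines had 4 to 13 clusters and the IP lists 8 to 33, but per 1000 clusters the inputs reached 2.71 and the IP lists 0.766.

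FGF18, a secreted growth factor, held 22 regions in 38.0 kb, and 18 of them were in 0 other lists. SCAF4 IP had 0, 30 and 14 clusters there and SCAF8 IP 1, 7 and 24. The inputs of both lines had 0 to 3, and control IP had 0 in each replicate. Per 1000 clusters, the IP lists of replicates 2 and 3 had 0.383 to 0.578 and the inputs of the tagged lines 0 to 0.333. Control input replicate 2, at 0.438, lay above SCAF8 IP replicate 2 at 0.383 and SCAF4 IP replicate 3 at 0.412. Both IP lists of replicate 1 were at the level of the inputs. SLX9 had 0, 18 and 14 clusters in SCAF4 IP, 1, 3 and 13 in SCAF8 IP and 0 to 2 in the inputs of these lines. Per 1000 clusters, IP and inputs of SLX9 overlapped, with up to 0.412 and 0.391. DNAAF5 had 13 of 18 regions in 0 other lists and had 4 to 18 clusters in the IP lists, 0 to 3 in the inputs of these lines and 1, 0 and 0 in control IP. Per 1000 clusters the IP lists had 0.211 to 0.471 and the inputs up to 0.29, so that SCAF8 input replicate 2 lay above SCAF4 IP replicate 1.

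Both amino acid transporter genes among the 20, SLC7A5 and SLC7A1, were dense. SLC7A5 held 18 regions in 1 intron of 10.6 kb, or 16.6 per 10 kb, the highest density of the 20 genes. Its clusters numbered 5, 21 and 25 in SCAF4 IP, 4, 4 and 7 in SCAF8 IP, and 1, 11 and 10 in SCAF4 input, but 0 in each SCAF8 input. Per 1000 clusters SCAF4 IP had 0.263, 0.386 and 0.736 and SCAF4 input 0.0854, 2.15 and 2.09, so that the input was higher in replicates 2 and 3. SLC7A1 held 14 regions, with 5, 19 and 11 clusters in SCAF4 IP and 4, 2 and 10 in SCAF8 IP, against 0 to 2 in the inputs of these lines. Per 1000 clusters, SCAF4 IP had 0.263 to 0.349 and SCAF4 input 0.0854, 0.391 and 0.417, so that 2 inputs lay above each SCAF4 IP list.

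TRMT11, a tRNA methyltransferase gene, went the opposite way. SCAF8 IP had 18, 6 and 22 clusters in its later introns and SCAF8 input 12, 7 and 6, whereas SCAF4 IP had 0, 7 and 1 and SCAF4 input 0 in each replicate. Control input had 7, 2 and 3. Per 1000 clusters SCAF8 IP had 0.328 to 0.715 and SCAF8 input 0.666 to 1.31. Scaled to 1000 clusters of the list, SCAF4 and SCAF8 IP did not overlap in 8 of the 20 genes, where 19.1% of the 551 genes did so. SCAF4 and SCAF8 input did not overlap in 5 of the 20, against 8.89% of the 551, and these 5 were among the 8, against 3.45% for both. They were SLC7A5, with more in the SCAF4 line, and TRMT11, IGF2BP2, ENSG00000267645 and ENSG00000268750, with more in the SCAF8 line. In these 5 genes the IP and the input of the lines stood apart in the same direction, and the part of the RNA level of each line was not tested.

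The 20 genes also held POLE and POLA1, the catalytic subunits of DNA polymerases epsilon and alpha, and TFDP1, the partner of E2F factors. POLE held 15 regions spread over 7 introns, with 4 to 16 clusters in the IP lists and 1 to 4 in the inputs of the tagged lines. Per 1000 clusters these ranged from 0.211 to 0.492 and from 0.0965 to 0.587 and overlapped. In POLA1 the highest count, 30, was in control input replicate 1, and 1 of its 13 regions was in 0 other lists. PTBP2 is a splicing repressor, IGF2BP2 an RNA-binding regulator of mRNA stability and WAC an adaptor of histone ubiquitination. PTBP2 had 1 of 14 regions in 0 other lists and its highest count, 23, in control input replicate 1. UBA2, a subunit of the SUMO-activating enzyme, held 16 regions over 8 introns. RPS10-NUDT3 and FMC1-LUC7L2 are annotated transcripts that join neighboring genes, with 20 and 15 regions, and 77 of 159 clusters in the first also lay in a first intron of another gene.

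**Figure D5:**
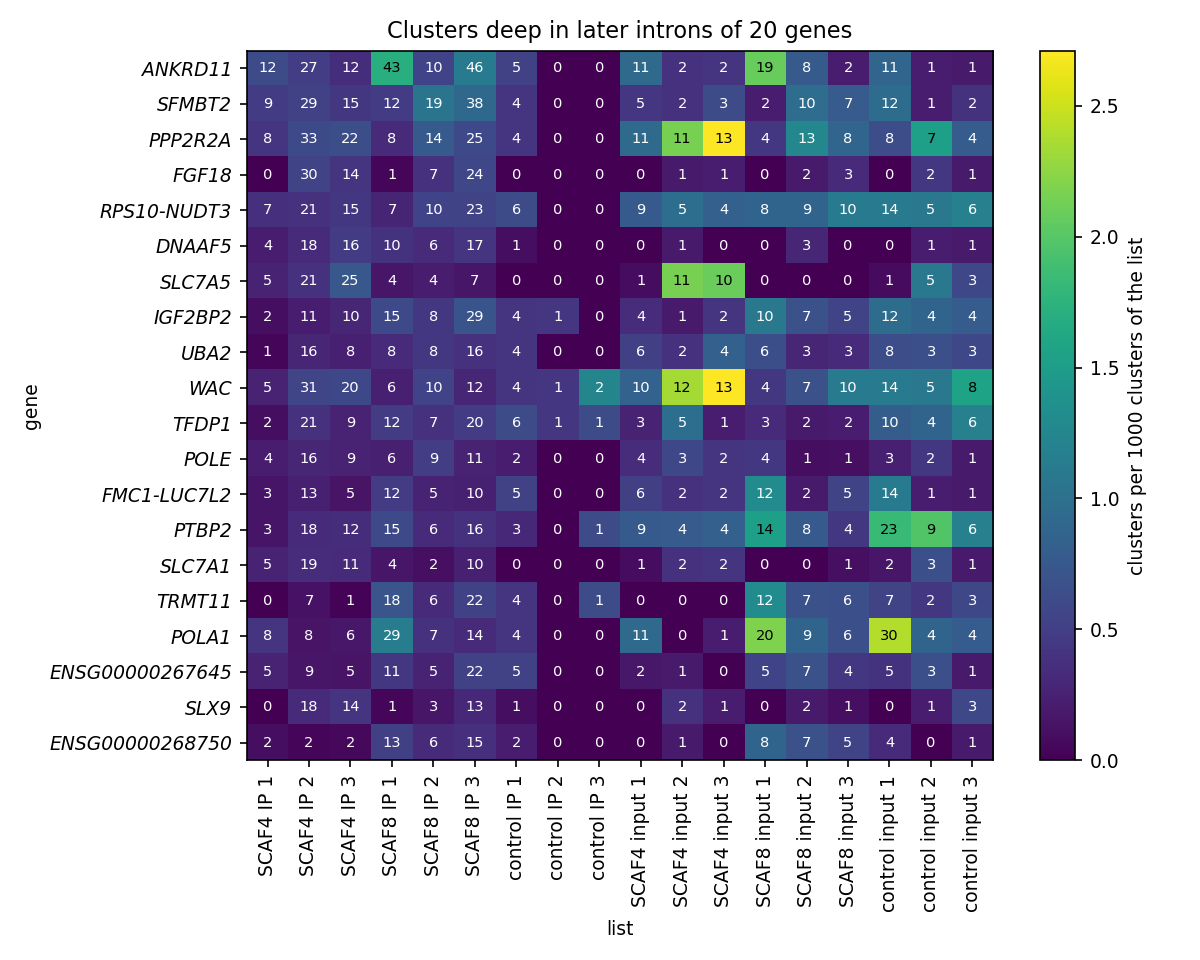
Number of clusters deep in later introns of the 20 genes with the most regions of at least 2 IP lists (rows) in each of the 18 lists (columns); numbers are counts and the color gives the count per 1000 clusters of the list. The brightest fields are inputs, as in PPP2R2A with 13 clusters in SCAF4 input replicate 3. Counts in control IP replicates 2 and 3 are between 0 and 2.

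Gene lists, chosen with earlier results of these data known, were read against all genes of the same kind. Among 7857 protein-coding genes with a deep later intron and a region of any kind, 16.7% held a region of at least 2 IP lists, and 10.9% held 1 in 0 other lists. These were 1315 and 858 genes. Neither the length nor the abundance of the transcripts was adjusted for, so these shares describe the lists and were not tested. Of 22 SR proteins, hnRNPs and other splicing regulators, 16 (72.7%) held a region of at least 2 IP lists and 10 (45.5%) a region in 0 other lists. Besides PTBP2 they were led by RBM39, a splicing factor with 6 regions, ELAVL1, which binds AU-rich elements, with 4, and PTBP1 with 4. ELAVL1 had 0, 5 and 2 clusters in SCAF4 IP, 0, 4 and 8 in SCAF8 IP and 0 in each input of these lines. Per 1000 clusters its IP lists had 0 to 0.219, and control input replicate 2, with 1 cluster, also had 0.219. RBM39 had 3 to 6 clusters in the inputs and 3 to 10 in the IP lists. Per 1000 clusters each RBM39 input, at 0.427 to 0.835, was above each IP list, at 0.118 to 0.316. PTBP1 had 0 to 0.0964 in the IP lists, 0 to 0.0965 in the inputs of the tagged lines and 0.311 in control IP replicate 1.

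Cleavage, polyadenylation and termination factors held a region of at least 2 IP lists in 11 of 25 genes (44%), and 7 had 1 in 0 other lists. RPRD1B, which binds the C-terminal domain of RNAPII as SCAF4 and SCAF8 do, held 11 regions, 2 of them in 0 other lists. Its clusters numbered 1, 5 and 5 in SCAF4 IP and 14, 3 and 12 in SCAF8 IP, and 15 in control input replicate 1, more than in any IP list. Per 1000 clusters RPRD1B had 0.0527 to 0.556 in the IP lists and 0 to 0.984 in the inputs of the tagged lines. XRN2, the exonuclease that degrades RNA behind the cleaved polyA site, held 6 regions, with 1 to 9 clusters in the IP lists and 0 to 3 in all inputs, which overlapped per 1000 clusters, at 0.0547 to 0.217 and 0 to 0.29 in the tagged lines. SCAF8 itself held 2 regions, with 1 or 2 clusters in each IP list. Control IP replicate 3, SCAF8 input replicate 2 and control input replicates 2 and 3 had 1 cluster each. Per 1000 clusters the gene had 0.0294 to 0.0547 in the IP lists and 0.617 in control IP replicate 3, the shortest list. The inputs with a cluster had 0.0965 to 0.219. WDR33, which recognizes the polyA signal, held 2 regions.

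Transcription elongation factors held such a region in 8 of 27 genes (29.6%), and in all 8 a region was in 0 other lists. Over all genes, 858 of the 1315 with a region of at least 2 IP lists had 1 in 0 other lists. MLLT3, a subunit of the super elongation complex, had 7 regions in its intron 2 of 164 kb. CCNK, the cyclin of CDK12 and CDK13, had 3 and NELFB, a subunit of the pausing factor NELF, had 2. Chromatin methyltransferases and remodelers held a region of at least 2 IP lists in 14 of 34 genes (41.2%). DOT1L, a histone H3 methyltransferase, had 7 regions, the remodeler EP400 had 5, the methyltransferase NSD2 had 4 and the remodeler CHD1 had 3. NSD2 had 2 to 7 clusters in every IP list and 0 or 1 in the inputs of the tagged lines, which overlapped per 1000 clusters, at 0.0735 to 0.169 and 0 to 0.209.

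Phosphatidylinositol 3-kinase related kinases and TOR regulators held such a region in 6 of 13 genes (46.2%), all with 1 in 0 other lists. Over all genes the latter held for 858 of 1315. PRKDC, the catalytic subunit of DNA-dependent protein kinase, had 8 regions over 6 introns. Per 1000 clusters PRKDC had 0.0794 to 0.289 in the IP lists and 0 to 0.626 in the inputs of the tagged lines. RICTOR and RPTOR, the defining subunits of both TOR complexes, had 4 regions each. RPTOR had 8, 3 and 12 clusters in SCAF8 IP and 0, 2 and 0 in SCAF4 IP, and 1 cluster in all 6 inputs of these lines together. Per 1000 clusters SCAF8 IP of RPTOR had 0.164 to 0.318 and the inputs at most 0.109. TRRAP, a scaffold of histone acetyltransferases, had 3. The genes of common fragile sites are very long, with a median of 680 kb open to members. Of these, 6 of 18 (33.3%) held a region of at least 2 IP lists, led by AUTS2 with 4. LPP, ATXN1 and RAD51B followed with 1 each. Per 1000 clusters RAD51B had 0 to 0.198 in the IP lists, 0 to 0.219 in the inputs of the tagged lines and up to 0.64 in control input. Of 9 genes that the study named for changes in polyA sites, 3 held regions of at least 2 IP lists, DNAJB6 with 2 and COX10 and HP1BP3 with 1 each. Per 1000 clusters DNAJB6 had 0.0241 to 0.105 in the IP lists and 0 to 0.209 in the inputs of the tagged lines. COX10 had 0 to 0.0589 and 0, and HP1BP3 had 0 to 0.0551 and 0 to 0.0854. DNAJB6 and COX10 each had 0.617 in control IP replicate 3, from 1 cluster. Microtubule motors and cytolinkers held regions of at least 2 IP lists in 3 of 20 genes (15%), near the share of all genes, with 2 in KIF20B and 1 each in DST and DYNC1LI1.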

How the data were processed

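PAR-CLIP clusters of 18 lists were analysed. Per the study's methods and the submitters' processing notes, the authors trimmed reads with Trim Galore and cutadapt and aligned them with Bowtie2 2.2.9, reporting 1 position per read. They removed duplicates with Picard, merged the soluble and chromatin reads of a replicate, and called clusters with PARalyzer on GRCh38. The deposited lists give each cluster's position and a score whose meaning is not given in the sources used here. It served only to rank clusters within a list. Read depth is unknown, and the length of a list is no measure of it.

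Members were found by midpoint against GENCODE 44 and clusters were merged into regions at an overlap of 1 nt (Python 3.11.15, pandas 2.3.3, scipy 1.17.1). Shares carry 95% Wilson intervals, which cover counting error only. Lists were compared by two-sided exact permutation tests on the difference of means, with Benjamini-Hochberg adjustment over 9 tests. Nothing in the labels says that replicates were separate cultures, so p-values measure the spread between these lists. The test statistics were tested on simulated data. GC content, motifs and 24-mers were read in 100 nt around the midpoint, and a 24-mer found at least 10 times in the genome counted as repeated. The members and gene lists were chosen with earlier results of these data known. Named are the 20 genes with the most regions of at least 2 IP lists, the genes of the 10 regions with the most IP lists and of the 10 with the most other lists, and up to 4 genes for each gene list; some of these are not reported here. The comparison of IP minus input between lines, the 24-mers and the matches to ribosomal RNA, mitochondrial and shifted letters were added after seeing the data. Alternatives changed the distance, exons, isoform, scores, denominator, window, overlap and replicates.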

Additional observations from a re-analysis of the deposited data

Results flagged for a closer look

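The difference between IP and input in the percentage of clusters deep in later introns was not alike in the control line and the tagged lines. It was −8.40 ± 1.18 (SD, n = 3) percentage points in the control line and −1.44 ± 1.77 (SD, n = 6) in the SCAF4 and SCAF8 lines, a difference of −6.96 (exact permutation test, p = 0.0119, adjusted p = 0.107). A test of the difference itself, chosen after the values were seen, drew attention to it, and it did not pass correction. With the same number of clusters in every list, the highest by score, it was −1.89 (exact permutation test, p = 0.25). This setting kept the whole of control IP replicate 3 but only the highest scores of longer lists. Control IP replicates 2 and 3 held 56 and 85 members.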

How the results depend on the processing

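The excess of SCAF4 and SCAF8 IP over control IP (2.40 points) was 1.69 at a distance of 1000 nt, 2.31 with exons of the same gene only, 2.27 from the cluster edge, 2.80 with the isoform of longest span, 2.03 with scores at or above the median and 1.91 with intronic clusters as denominator. It was 2.33 without clusters also in a first intron of another gene, an alternative chosen after seeing the data. None of these reached the threshold, and with the same number of clusters in every list it turned to −1.91. IP against inputs moved to −3.69, −4.28 and −6.53 with scores at or above the median, equal numbers and the intronic denominator. The upstream share turned to −0.108 and −4.88, and repeated 24-mers to 0.0826 and 0.00219, with scores at or above the median and equal numbers. GC was 2.03 at 1000 nt and 2.03 with equal numbers, and the difference between lines −1.89 with equal numbers. Regions of at least 2 IP and 0 other lists numbered 620 with scores at or above the median, 2 with equal numbers and 453 in at least 3 IP lists. The causes were not tested.

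Leaving out 1 replicate at a time gave −2.04 to −0.473 for IP against inputs, 1.52 to 3.13 against control IP, −2.43 to −0.202 for SCAF4 against SCAF8 IP, −9.08 to −8.06 for control IP against control input, −1.84 to −0.741 for later introns, 1.00 to 2.16 for the upstream share, 1.63 to 2.82 for GC, −1.11 to 0.0634 for repeated 24-mers, −7.59 to −6.25 between lines and 553 to 1429 regions. Without replicate 2 the value for 24-mers was thus reversed. With a replicate block the excess over control IP kept its 2.40 points at an exact permutation p of 0.111, and the block changed no other call. IP and input of the same number correlated over 856 genes at 0.0903 to 0.459, not above 0.1 in every pair. Pairs of different numbers gave −0.341 to 0.221. The main tests of IP against input therefore did not pair lists by number. Paired by number, IP against inputs had p = 0.0938 and the upstream share p = 0.0625 (exact sign-flip tests of the paired differences). The difference between lines was paired, as it used IP minus input of the same number. The planned comparison of repeat-masked bases was not run, since the genome used is not soft-masked. Without read counts, a cluster missing from a short list cannot be told apart from one below its depth.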
